A study of Mus musculus with 13 samples.

Results

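The complement components and regulators followed here are C1qa, C1qb, C1qc, C1s1, C3, C4b, Cfb, Serping1 and C3ar1, chosen by name and found through the gene annotation of the array probes. Of these 9 genes, 8 had an annotated probe, with 12 probes on the larger array platform and 9 on the smaller. On each platform 7 of the 9 genes passed the detection filter, among 11057 genes tested on the larger and 9714 kept on the smaller. C3, the component on which all the pathways meet, had no annotated probe and was not analysed here. The probe of C3ar1, the receptor for the C3a fragment, was above background on 0 of 9 and 0 of 4 arrays, so C3ar1 was not tested, which leaves its level unmeasured and does not show its absence.

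RNA came from tumours of 4T1, a mouse mammary carcinoma line. PDGFRb-TK mice carry a viral thymidine kinase under the Pdgfrb promoter, which is active in pericytes and can be active in fibroblasts, and ganciclovir kills dividing cells that hold the kinase. The labels give ganciclovir (GCV) for every sample. The larger platform held 9 arrays in 3 groups of 3. WT/IgG stands for wild-type hosts with control IgG, TK/IgG for PDGFRb-TK hosts with the same control IgG, and TK/anti-Ang2 for PDGFRb-TK hosts that received anti-Ang2, an antibody against angiopoietin-2. The smaller platform held 4 arrays: early pericyte ablation with its control, and late pericyte ablation with its control, at 1 array each. A transgene field reads positive for every sample, wild-type hosts included, and the genotype field of the pair controls reads PDGFRb-TK where their description reads wild type, so groups follow the sample titles. No age of the animals is given in the sources used here. Whether replicates are separate animals is not stated, and the p-values then reflect only the spread between these samples, possibly technical.

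Complement is a cascade of plasma proteases that tags cells and debris for removal. In the classical pathway C1q, built from the A, B and C chains that C1qa, C1qb and C1qc encode, binds its target and switches on the proteases C1r and C1s, which cut C4 and C2. Serping1 encodes C1 inhibitor, which blocks C1r and C1s, and Cfb encodes factor B, the protease of the alternative pathway. In tumours C1q comes largely from macrophages, while C1s, C3 and C1 inhibitor are made by fibroblasts and other stromal cells among others.

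Levels are normalised log2 signals, on which a difference of 1 is a doubling. On the 9 arrays 40.6 to 43.2% of probes were above background, and the number of arrays limits the precision. Epithelial Krt8 and Krt18 were above background on all 9 arrays, while the probe of Epcam was above background on 0 of 9 and Cd68 had no annotated probe. Pdgfrb, the gene whose promoter drives the transgene, read 5.99 ± 0.31 in TK/IgG and 7.09 ± 0.21 in WT/IgG (SD, n = 3), a difference of -1.10 with limma adjusted p = 0.999. TK/anti-Ang2 replicate 2 was unlike the other arrays. Against the other 8 its median correlation was 0.931, against 0.968 to 0.977 for the others, and its mean levels of the keratinocyte and hair (11.94), mast cell (9.68) and adipocyte (9.01) marker lists were the highest of the 9. Results that rest on it are given with and without it. In bulk tumour RNA, fewer cells of a type and less RNA per cell cannot be told apart.

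The C1q genes lie side by side on mouse chromosome 4, in the order C1qb, C1qc and C1qa in RefSeq's list of protein-coding genes. C1s1 lies between C1ra and C1rb on chromosome 6, and Cfb lies next to C2 on chromosome 17. RefSeq promoter windows (GRCm38.p6, 250 bases before to 50 after the start of the gene) were at hand for 5 of the 9 genes. Those of C1qb and C1qc are shown because the levels of these genes followed each other most closely among the members tested, and that of C1s1 because it is the member with the smallest p in the antibody comparisons. Each is written 5′ to 3′ on the gene's strand, which is the minus strand for these 3 genes. The windows are chr4:136886151-136886450 for C1qb, chr4:136892865-136893164 for C1qc and chr6:124542310-124542609 for C1s1, the last being 1 of 2 windows of that gene. Capitals mark matches, on either strand, to a kB-like motif (GGG, any 5 bases, then CC).
C1qb: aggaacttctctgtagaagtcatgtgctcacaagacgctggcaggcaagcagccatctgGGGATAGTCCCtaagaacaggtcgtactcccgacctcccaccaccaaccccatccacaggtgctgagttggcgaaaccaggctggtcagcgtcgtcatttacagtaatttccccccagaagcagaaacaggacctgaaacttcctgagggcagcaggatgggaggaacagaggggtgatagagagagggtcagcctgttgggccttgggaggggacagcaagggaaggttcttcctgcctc
C1qc: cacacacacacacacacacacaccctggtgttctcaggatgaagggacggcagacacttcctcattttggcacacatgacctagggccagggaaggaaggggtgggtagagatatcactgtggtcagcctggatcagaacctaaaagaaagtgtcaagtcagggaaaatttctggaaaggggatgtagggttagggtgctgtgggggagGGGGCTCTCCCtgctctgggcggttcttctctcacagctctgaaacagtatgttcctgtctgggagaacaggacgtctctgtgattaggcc
C1s1: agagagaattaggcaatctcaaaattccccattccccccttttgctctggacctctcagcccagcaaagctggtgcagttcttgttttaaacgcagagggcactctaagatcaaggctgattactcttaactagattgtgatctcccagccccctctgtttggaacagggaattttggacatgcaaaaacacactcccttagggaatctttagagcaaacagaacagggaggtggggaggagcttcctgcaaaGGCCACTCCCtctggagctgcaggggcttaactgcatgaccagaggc
Each of these windows holds a kB-like match, and in C1qb and C1qc matches on the 2 strands overlap. Such a match is common, since 50.8% of 32851 promoter windows of that length hold one. The interferon motifs GAS (TTC, any 3 bases, then GAA) and ISRE (GAAA, any 2 bases, then GAAA) had 0 matches on either strand in the windows of C1qb, C1qc and C1s1, and 8.3% and 3.44% of all windows hold them. A match is a description of letters and not a binding site.

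The genes of C1q were among the brighter ones, and their levels did not separate the 3 antibody groups. C1qa read 10.78, 10.39 and 10.69 in WT/IgG, 10.07, 10.80 and 11.15 in TK/IgG, and 10.51, 11.002 and 10.41 in TK/anti-Ang2 (replicates 1, 2 and 3). C1qb read 12.13, 11.61 and 12.02 in WT/IgG, 11.40, 11.86 and 12.04 in TK/IgG, and 11.47, 12.06 and 11.70 in TK/anti-Ang2. C1qc read 12.14, 11.46 and 11.84 in WT/IgG, 11.21, 11.85 and 11.97 in TK/IgG, and 11.37, 11.96 and 11.51 in TK/anti-Ang2. All 3 chains were lowest on TK/IgG replicate 1, and for each chain the 3 groups overlapped.

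In TK/IgG against WT/IgG, which asks what the transgene with ganciclovir changed, C1qa differed by 0.05 (SE 0.28), C1qb by -0.15 (SE 0.23) and C1qc by -0.14 (SE 0.26), each with limma adjusted p = 0.999. In TK/anti-Ang2 against TK/IgG, which asks what the antibody added, the differences were -0.03, -0.02 and -0.06, with limma adjusted p of 0.997, 0.997 and 0.994. As a ratio, C1qb was 0.984 times its TK/IgG level with a 95% interval of 0.683 to 1.42, not adjusted for the number of genes. Changes within that interval are therefore not excluded by 3 arrays a group. Against WT/IgG the TK/anti-Ang2 differences were 0.02, -0.18 and -0.20. Without TK/anti-Ang2 replicate 2 the differences from TK/IgG were -0.21, -0.18 and -0.23, and none passed at the adjusted threshold of 0.05. These comparisons share arrays, so they are not independent of each other. The summed level of the 17 macrophage markers kept, of 20 listed, overlapped as well, at 29506 to 40258 in WT/IgG, 28186 to 38284 in TK/IgG and 28759 to 50865 in TK/anti-Ang2. Set against TK/IgG, 8 of the 17 were higher and 9 lower under the antibody, and 2 were higher and 15 lower without TK/anti-Ang2 replicate 2 (median -0.27). Their part in the C1q values was not tested.

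**Figure D1:**
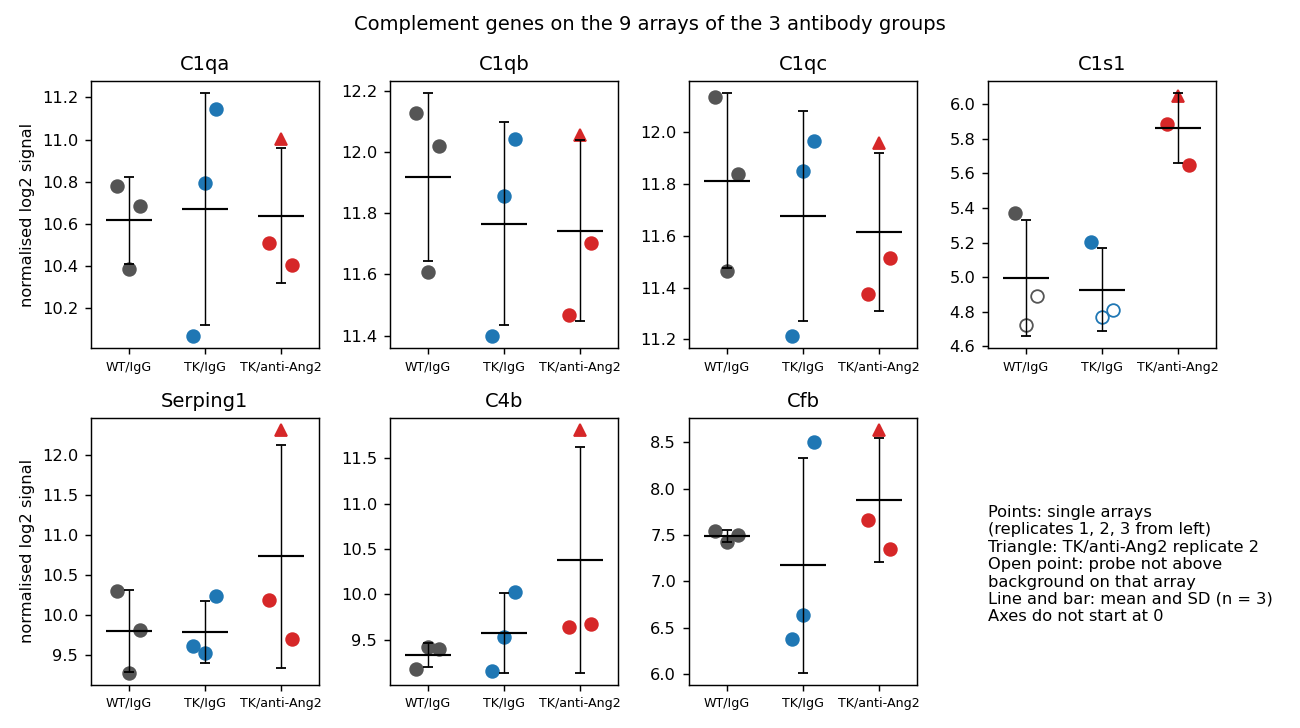
Normalised log2 signal (vertical axis) of the 7 complement genes tested, for each of the 9 arrays by antibody group, with the mean and SD of 3 arrays. The C1q genes overlap between groups, C1s1 sits between 5.65 and 6.05 in TK/anti-Ang2 and at 5.37 or below elsewhere, and Serping1 and C4b are highest on TK/anti-Ang2 replicate 2, drawn as a triangle.

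C1s1 encodes the protease C1s and was the member tested with the smallest p in both comparisons of TK/anti-Ang2. It read 5.37, 4.72 and 4.89 in WT/IgG, 5.21, 4.77 and 4.81 in TK/IgG, and 5.89, 6.05 and 5.65 in TK/anti-Ang2. All 3 TK/anti-Ang2 arrays were above all 6 others, and the groups WT/IgG and TK/IgG overlapped. The signal is dim: its probe was above background on 3 of 3 TK/anti-Ang2 arrays and on 1 of 3 in each of the other groups. It met the filter of 3 detected arrays only through TK/anti-Ang2, the group where it is high, so its p comes from a gene that the compared group itself let in. The measured difference between TK/anti-Ang2 and TK/IgG was 0.94 (SE 0.21), taken against a group that was mostly not above background, and no fold is given. The unadjusted p was 0.00171 and limma adjusted p = 0.992, so C1s1 did not pass. With no detection filter, among 19057 genes, the unadjusted p was 0.00138 and limma adjusted p = 0.995. With normexp background correction that does not use the detection p-values the difference was 0.45, and 0.42 from WT/IgG. The two-sided exact permutation p was 0.1, the smallest possible for 3 arrays against 3.

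Against WT/IgG the C1s1 difference was 0.87 (SE 0.21, limma adjusted p = 0.672). Without TK/anti-Ang2 replicate 2 the differences were 0.84 from TK/IgG and 0.77 from WT/IgG. The other C1s1 probe, above background on 3 of 9 arrays, differed by 0.50 from TK/IgG and by 0.66 from WT/IgG, and by 0.27 and 0.43 without that array. On that probe the groups overlapped, because TK/anti-Ang2 replicate 3 read 4.67 and TK/IgG replicate 3 read 5.33. C1s2, a close relative of C1s1 whose transcripts could share probe signal, read 5.51, 7.66 and 5.98 in TK/anti-Ang2 and 4.50, 5.34 and 5.92 in TK/IgG. The difference of C1s2 was 1.13 (SE 0.54, limma adjusted p = 0.992), and it was 0.49 without TK/anti-Ang2 replicate 2. Of the genes of the other C1 protease, C1ra and C1rb did not pass the detection filter.

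Serping1, C1 inhibitor, was high on 1 array. It read 10.30, 9.28 and 9.81 in WT/IgG, 9.62, 9.52 and 10.23 in TK/IgG, and 10.19, 12.32 and 9.70 in TK/anti-Ang2. TK/anti-Ang2 replicate 2 was above every other array, and the other 2 arrays of that group lay within the range of the WT/IgG arrays. The difference from TK/IgG was 0.94 (SE 0.60, limma adjusted p = 0.992) with that array and 0.15 without it. From WT/IgG it was 0.94 with the array and 0.14 without it. The other Serping1 probe, above background on all 9 arrays, gave 0.97 from TK/IgG, 0.94 from WT/IgG and -0.03 for TK/IgG against WT/IgG. Leaving out TK/anti-Ang2 replicate 2, that probe gave 0.15 from TK/IgG and 0.12 from WT/IgG.

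C4b encodes complement component C4, which C1s cuts. It read 9.18, 9.42 and 9.40 in WT/IgG, 9.16, 9.53 and 10.03 in TK/IgG, and 9.65, 11.81 and 9.68 in TK/anti-Ang2. All 3 TK/anti-Ang2 arrays were above all 3 of WT/IgG, while TK/IgG overlapped with both. The difference from WT/IgG was 1.05 (SE 0.52, limma adjusted p = 0.673), and 0.33 without TK/anti-Ang2 replicate 2. From TK/IgG it was 0.80 (SE 0.52, limma adjusted p = 0.992), and 0.09 without that array. The other C4b probes, above background on 5 and 6 of 9 arrays, differed from TK/IgG by 0.54 and 0.89, and by 0.21 and 0.50 without that array. C4a is nearly identical to C4b, so the probes of either may read both, and C4a read 9.21, 9.31 and 10.44 in TK/IgG and 9.85, 11.62 and 9.94 in TK/anti-Ang2, again highest on replicate 2.

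Cfb, factor B, varied most within TK/IgG. It read 7.54, 7.42 and 7.50 in WT/IgG, 6.38, 6.64 and 8.50 in TK/IgG, and 7.66, 8.64 and 7.35 in TK/anti-Ang2. The WT/IgG arrays lay close together (SD 0.06), while TK/IgG replicate 3 and TK/anti-Ang2 replicate 2 stood above all others. TK/IgG minus WT/IgG was -0.31 (SE 0.53, limma adjusted p = 0.999), and -0.98 without TK/IgG replicate 3. TK/anti-Ang2 minus TK/IgG was 0.71 (SE 0.53, limma adjusted p = 0.992). Leaving out TK/anti-Ang2 replicate 2 made it 0.33, and leaving out TK/IgG replicate 3 made it 1.37. C2, the protease gene next to Cfb, was high on the same arrays, with 7.58, 7.21 and 9.30 in TK/IgG, 8.39, 9.82 and 8.16 in TK/anti-Ang2 and 7.42 to 7.69 in WT/IgG. The mean level of 15 interferon response genes was 10.30 on TK/IgG replicate 3, the highest of the 9 arrays, and 8.72 on TK/anti-Ang2 replicate 2. The mean level of 14 acute phase and NF-kB response genes was 10.33 on TK/anti-Ang2 replicate 2, the highest, and 9.13 on TK/IgG replicate 3. The part of these responses in the levels of Cfb was not tested.

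Counted together, 0 of the 7 members passed the adjusted threshold in any antibody comparison, as did 0 (0%) of 11057 genes. At an unadjusted p under 0.05, TK/IgG against WT/IgG had 0 of 7 members, where 2.94% of all genes passed. TK/anti-Ang2 against TK/IgG had 1 of 7, C1s1, where 3.34% passed, and TK/anti-Ang2 against WT/IgG had 1 of 7, again C1s1, where 7.39% passed. Since C1s1 met the detection filter through TK/anti-Ang2, nothing is read from these counts. Arrays did not overlap for 0, 1 and 2 members in these comparisons, where 8.27%, 6.95% and 12.6% of all genes did not overlap. The median difference of the members was -0.07, 0.71 and 0.39, beside -0.02, -0.02 and -0.04 over all genes. The medians of the last 2 were 0.09 and 0.02 without TK/anti-Ang2 replicate 2. With C1s1 left out these medians were 0.34 and 0.21 over the 9 arrays. With both C1s1 and that array left out they were -0.05 and -0.07.

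Macrophage C1q genes and stromal genes were then set against each other, as the mean of C1qa, C1qb and C1qc and the mean of C1s1 and Serping1, each gene centred on its mean over the 9 arrays. C3, listed with the stromal genes, could not enter. The gap, C1q minus stromal, was 0.14, 0.45 and 0.46 in WT/IgG, -0.22, 0.66 and 0.50 in TK/IgG, and -0.62, -1.21 and -0.17 in TK/anti-Ang2. It averaged 0.35 ± 0.18 in WT/IgG, 0.31 ± 0.47 in TK/IgG and -0.67 ± 0.52 in TK/anti-Ang2 (SD, n = 3), and TK/anti-Ang2 and TK/IgG overlapped by replicates 3 and 1. The gap differed by -0.98 between TK/anti-Ang2 and TK/IgG, made of -0.04 for the C1q genes and 0.94 for the stromal genes. Without TK/anti-Ang2 replicate 2 the gap differed by -0.70, and by -0.74 from WT/IgG against -1.02 with it. C1qa, C1qb and C1qc then differed from TK/IgG by -0.21, -0.18 and -0.23, so the C1q part was larger without that array. The stromal mean holds C1s1, which met the detection filter only through TK/anti-Ang2. With that array left out, C1s1 differed from TK/IgG by 0.84 and Serping1 by 0.15, so nothing is read from the size of the gap. The 19 fibroblast markers kept, of 20 listed, summed to 26991 to 57332 in TK/anti-Ang2, 26959 to 31910 in TK/IgG and 27715 to 40062 in WT/IgG, with the highest sum on TK/anti-Ang2 replicate 2. Set against TK/IgG, 18 of the 19 were higher under the antibody (median difference 0.39), and set against WT/IgG, 12 were lower (median -0.14). With TK/anti-Ang2 replicate 2 left out, 8 were higher and 11 lower against TK/IgG (median -0.14), and 15 were lower against WT/IgG (median -0.77). Their part in the gap was not tested. No p is given for these means, since the genes were chosen with results known.

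**Figure D2:**
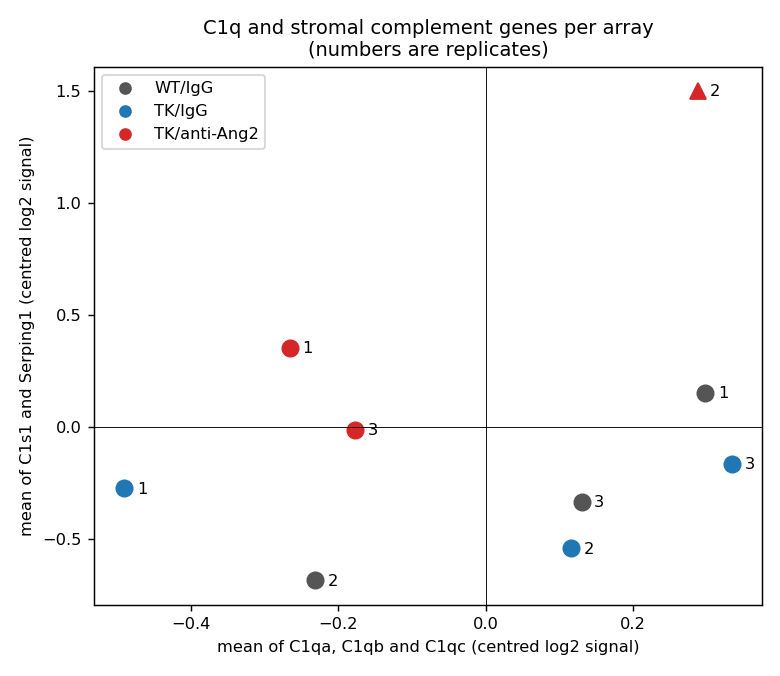
Each point is 1 of the 9 arrays, with the mean centred log2 signal of C1qa, C1qb and C1qc on the horizontal axis and of C1s1 and Serping1 on the vertical axis. The groups mix along the horizontal axis, and TK/anti-Ang2 replicate 2 (triangle) lies highest.

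The chains of C1q had the most similar levels over the 9 arrays among the members. After centring, C1qb and C1qc differed by a root mean square of 0.07, C1qa and C1qb by 0.17 and C1qa and C1qc by 0.15. Between C1qa and the other members tested the figure was 0.51 to 0.72, and the median over all genes was 0.41. When TK/anti-Ang2 replicate 2 was left out, the figure for C1qa was 0.26 with C4b and 0.31 with Serping1, both below the median over all genes of 0.38, while C1s1 stood at 0.59 and Cfb at 0.46. Among all genes, C1qc ranked 16 and C1qb ranked 31 in likeness to C1qa, and 51 and 83 without that array. Outside the members the genes nearest to C1qa were Fgr, Arhgap30, Selplg, Tnfaip8 and Gpr171 (0.09 to 0.13). Without the array 1 of these 5, Fgr, was still among the 5 nearest, and the others ranked as low as 24. C1s1 had its nearest genes in Art3 (0.15), Rad18, Nfkbiz, Car2 and Cmbl (up to 0.24, median of all genes 0.56). Without the array Art3 still ranked 1, while the others ranked 7 to 59. The Car2 probe was above background on 0 of 3 arrays in WT/IgG, and that of Cmbl on 0 of 3 in TK/IgG. The Art3 probe was above background on 2 of 3 arrays in each of these groups, and that of C1s1 itself on 1 of 3. Since C1s1 met the filter only through TK/anti-Ang2, nothing is read from its nearest genes. Serping1 and C4b differed by 0.36, the closest pair outside the C1q chains, and by 0.38 without the array. Each C1q chain was then closer to Serping1 and to C4b, at 0.26 to 0.37, than those genes were to each other. The points are the same 9 arrays in each case, so these figures describe them and nothing more.

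In the ablation pairs, where each group is 1 array and no test is possible, all 3 C1q genes were lower with ablation, early and late. C1qa read 9.31 with early ablation and 10.16 in its control, and 9.84 with late ablation and 10.11 in its control. C1qb read 10.50 against 11.51 early and 10.52 against 11.33 late. C1qc read 10.49 against 11.31 early and 10.80 against 11.42 late.

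The early log2 ratios were -0.84 for C1qa, -1.005 for C1qb and -0.82 for C1qc, or 55.8%, 49.8% and 56.6% of the control level. Of 9714 genes, 0.288%, 0.134% and 0.319% had lower early ratios than these. The late ratios were -0.26, -0.81 and -0.62, or 83.4%, 57.0% and 65.2% of the control level, with 14.2%, 0.968% and 1.89% of genes lower. Between the controls the late minus early differences were -0.05, -0.18 and 0.11. Being lower in both pairs was true of 27.1% of all genes. At a log2 ratio of at least 1, 0.947% of genes were up and 0.144% down in the early pair, C1qb among them, and 0.391% up and 0.669% down in the late pair, with no member. These member calls depend on the scaling. With arrays aligned on their medians, C1qb was at -0.97 early and no longer past 1, while C1qb at -1.13 and Serping1 at -1.03 were past it late. Under that alignment the late ratio of C1qa was -0.61, and the late counts were 20 up and 107 down in place of 38 and 65. With the authors' processed values the counts were 253 up and 116 down early, in place of 92 and 14, and 375 up and 262 down late.

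Of the 15 other macrophage markers kept, of 20 listed and none of them a C1q gene, 9 were lower and 6 higher with early ablation (median ratio -0.30), and 13 were lower and 2 higher with late ablation (median ratio -0.33). They ranged early from -0.91 for Aif1 to 0.81 for Cd163, the haemoglobin scavenger receptor, and late from -0.58 for Lyz2, lysozyme, to 0.74 for Cd14, the lipopolysaccharide co-receptor. Their mean level was 8.82 with early ablation against 9.06 in the control, and 8.77 against 8.98 late. Adgre1, which encodes the macrophage surface protein F4/80, had log2 ratios of -0.63 early and -0.41 late. The markers summed to 15567 against 19027 early and to 14307 against 17968 late. Genes of MHC class II and dendritic cells averaged 9.09 against 9.62 early and 8.98 against 9.45 late (6 of 10 listed genes kept). The arrays of a pair differed in other cell types too. Skeletal muscle markers summed to 12956 with early ablation against 2170 in its control, and to 2741 against 4815 late. Neutrophil markers summed to 22520 against 11092 early and to 18517 against 10997 late. The part of macrophage number or of these other cell types in the C1q ratios was not tested.

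**Figure D3:**
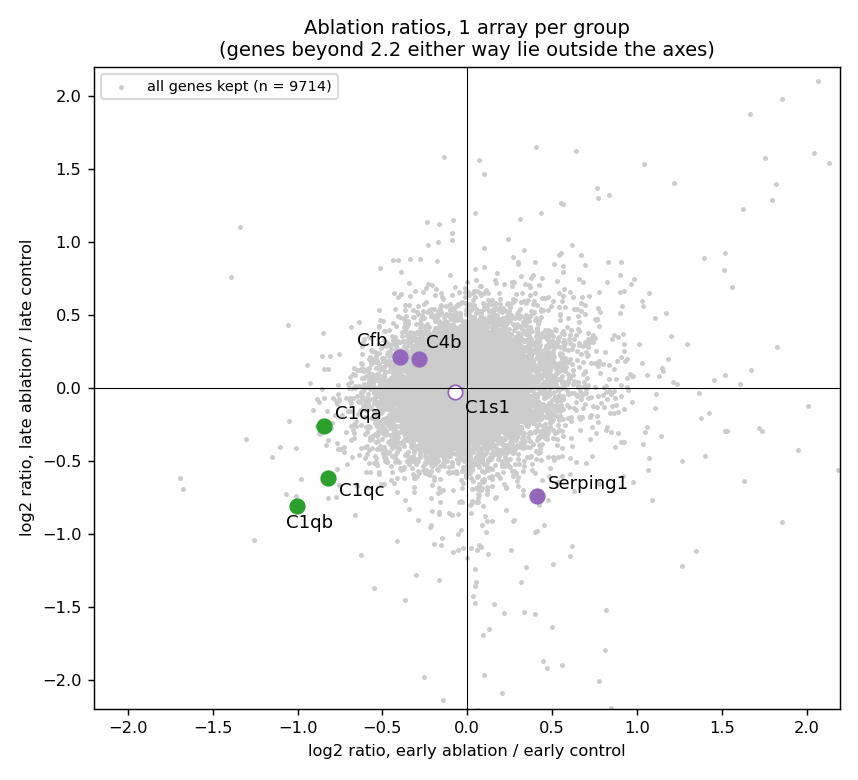
Log2 ratio of ablation to control in the early pair (horizontal axis) and the late pair (vertical axis), with 1 array per group. Grey points are all 9714 genes kept, and coloured points are the 7 complement genes kept, C1s1 open because only the early control array was above background. The C1q genes lie at the lower left, with early ratios from -1.005 to -0.82.

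Outside C1q the members went different ways in the pairs. Serping1 read 9.57 against 9.16 early and 8.36 against 9.11 late, with ratios of 0.41 and -0.75. It was thus higher with early ablation and lower with late ablation, where 1.21% of genes had lower ratios. The 18 fibroblast markers kept summed to 16320 against 14456 early and 9558 against 19624 late. Of these, 10 were higher and 8 lower early, with a median ratio of 0.05 and a range from -0.39 for Pcolce to 1.27 for Dcn. In the late pair 2 were higher and 16 lower, with a median of -1.17 and a range from -3.19 for Col1a1 to 0.20 for Fbln2. Their part in the Serping1 values was not tested. Pdgfrb itself had ratios of 0.06 and -0.78.

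C4b read 8.03 against 8.31 early and 8.60 against 8.41 late, with ratios of -0.28 and 0.20, the late one turning to -0.13 when arrays were aligned on their medians. Cfb read 6.95 against 7.35 early and 7.46 against 7.25 late, with ratios of -0.40 and 0.21, the late one turning to -0.03 under the same alignment, which also moved the median of all genes to -0.21. C1s1 was above background on the early control array alone, at 6.405 against 6.330 with early ablation, so no ratio is given for it. Of the 7 members kept, C1s1 included, 6 had lower early values and 5 lower late values, where 51.7% and 49.6% of all genes were lower. The gap between C1q and stromal genes was -1.06 in the early pair and -0.18 in the late pair, with C1s1, mostly not above background there, averaged in. Against Serping1 alone the C1q mean was lower by a log2 difference of -1.30 early and higher by 0.18 late, so the late value changes sign with C1s1 left out, a comparison added after the values were seen.

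The rest of the pathway was read from a list of 52 other complement genes, of which 24 were tested on the 9 arrays and 21 kept on the 4. In TK/anti-Ang2 against TK/IgG, 17 of the 24 were higher and 7 lower, and 0 passed the adjusted threshold. At an unadjusted p under 0.05, 2 of the 24 passed, Cd93 and Masp2, both lower, where 3.34% of all genes did. The median difference of the 24 was 0.17, beside -0.02 over all genes. Without TK/anti-Ang2 replicate 2 the count was 12 higher and 12 lower, with a median of 0.02.

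The genes with the largest positive differences from TK/IgG were C1s2 (1.13), C4a (0.82) and C2 (0.76), and without TK/anti-Ang2 replicate 2 they were 0.49, 0.24 and 0.25. The largest differences downward were Cd93 (-0.80), Masp2 (-0.70) and Fcna (-0.38). Cd93 is a receptor of endothelial and myeloid cells once taken for a C1q receptor. It read 8.86, 8.86 and 8.99 in TK/anti-Ang2 and 9.35, 9.75 and 10.01 in TK/IgG. These groups did not overlap (limma unadjusted p = 0.0259 and adjusted p = 0.992), which held for 6.95% of all genes. Without TK/anti-Ang2 replicate 2 the Cd93 difference was -0.78 (limma unadjusted p = 0.0541). WT/IgG read 9.75, 8.80 and 9.998 and overlapped with both. Of 12 endothelial markers, 11 were lower in this comparison, with summed levels of 2413 to 2779 in TK/anti-Ang2 and 3617 to 5335 in TK/IgG, and their part in the Cd93 values was not tested. Masp2, a protease of the lectin pathway, read 5.02, 4.77 and 5.51 against 5.55, 6.10 and 5.75 (unadjusted p = 0.0134, limma adjusted p = 0.992), and it was above background on 1 of 3 TK/anti-Ang2 arrays. Its groups did not overlap either. Without TK/anti-Ang2 replicate 2 the Masp2 difference was -0.54 (limma unadjusted p = 0.0482). Fcna, the lectin ficolin A, read 9.43, 11.50 and 9.69 against 11.47, 10.33 and 9.96, and its difference was -1.03 without TK/anti-Ang2 replicate 2.

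**Figure D4:**
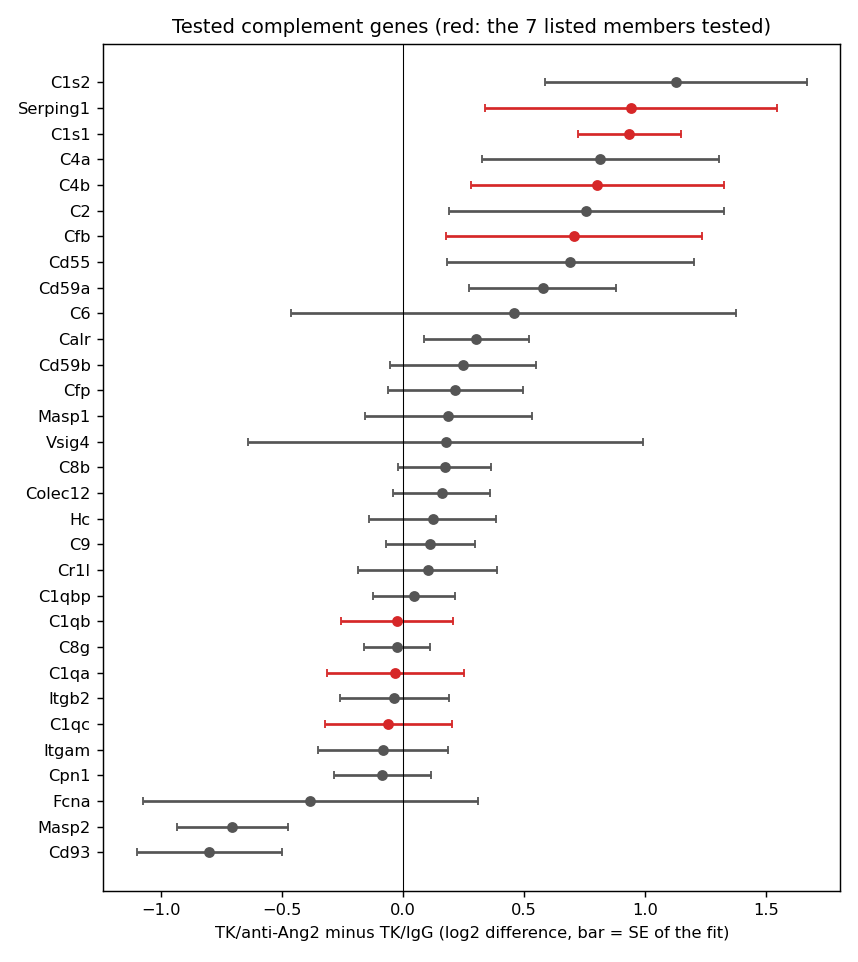
Log2 difference between TK/anti-Ang2 and TK/IgG (horizontal axis) with the standard error of the fit, for the 31 complement genes tested, the 7 members in red. C1s2, Serping1 and C1s1 lie at the top and Cd93 at the bottom at -0.80; 0 of them passed at the adjusted threshold of 0.05.

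In TK/IgG against WT/IgG, 18 of the 24 other complement genes were higher, with a median difference of 0.08 beside -0.02 over all genes. At an unadjusted p under 0.05, 0 of the 24 passed, where 2.94% of all genes did. Vsig4 (0.74), Fcna (0.66) and C2 (0.47) were at the top and Hc (-0.58), C6 (-0.43) and Itgam (-0.38) at the bottom. Vsig4, a macrophage receptor for C3 fragments, ranged from 5.69 to 8.49 within WT/IgG alone. In TK/anti-Ang2 against WT/IgG, 19 of 24 were higher, led by C2 (1.23), C1s2 (0.98) and Cd55 (0.97), which were 0.72, 0.34 and 0.39 without TK/anti-Ang2 replicate 2, and Masp2 (-0.65), Cd93 (-0.61) and Itgam (-0.46) were lowest. The median difference of the 24 was 0.23, beside -0.04 over all genes. Calr (0.70) and Cd59a (0.78) were higher and Masp2 lower at an unadjusted p under 0.05, where 7.39% of all genes passed, and 0 passed the adjusted threshold. Without TK/anti-Ang2 replicate 2 the count in this comparison was 16 higher and 8 lower, with a median of 0.17. Of all genes, 6.49% then had an unadjusted p under 0.05. Calr, at 0.86, still had an unadjusted p under 0.05, Cd59a at 0.46 (unadjusted p = 0.0985) and Masp2 at -0.49 (unadjusted p = 0.0686) did not, and Hc at -0.65 (unadjusted p = 0.0363, limma adjusted p = 0.754) then did. Of the tested regulators that guard host cells, Cd55, Cd59a and Cd59b were highest on that array, at 7.85, 9.38 and 5.90. The Cd59b probe was above background on 6 of 9 arrays. Cr1l, another such regulator, read 6.20 on that array and was highest on TK/anti-Ang2 replicate 1, at 6.62.

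In the pairs the other complement genes went both ways, with more of them lower than higher late. Of 21 kept, 10 were higher and 11 lower early, and 7 were higher and 14 lower late. Of all genes, 51.7% were lower early and 49.6% late. The median ratio of the 21 was -0.03 early and -0.14 late, beside -0.01 and 0.002 over all genes. The largest early ratios were C2 (0.56), C1qbp (0.22) and Cd59a (0.17), and C6 (-0.82) and Fcna (-0.58) were lowest among genes above background. C5ar2, a receptor for the C5a fragment, was above background on the early control array alone, so no ratio is given for it. In the late pair Clu, the fluid-phase regulator clusterin, had 0.34, and Cd93 (-0.56), Calr (-0.51) and C6 (-0.36) were lowest. C8a and Cfi, next after Clu in the late pair, were not above background on either late array, so no ratio is given for them.

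**Figure D5:**
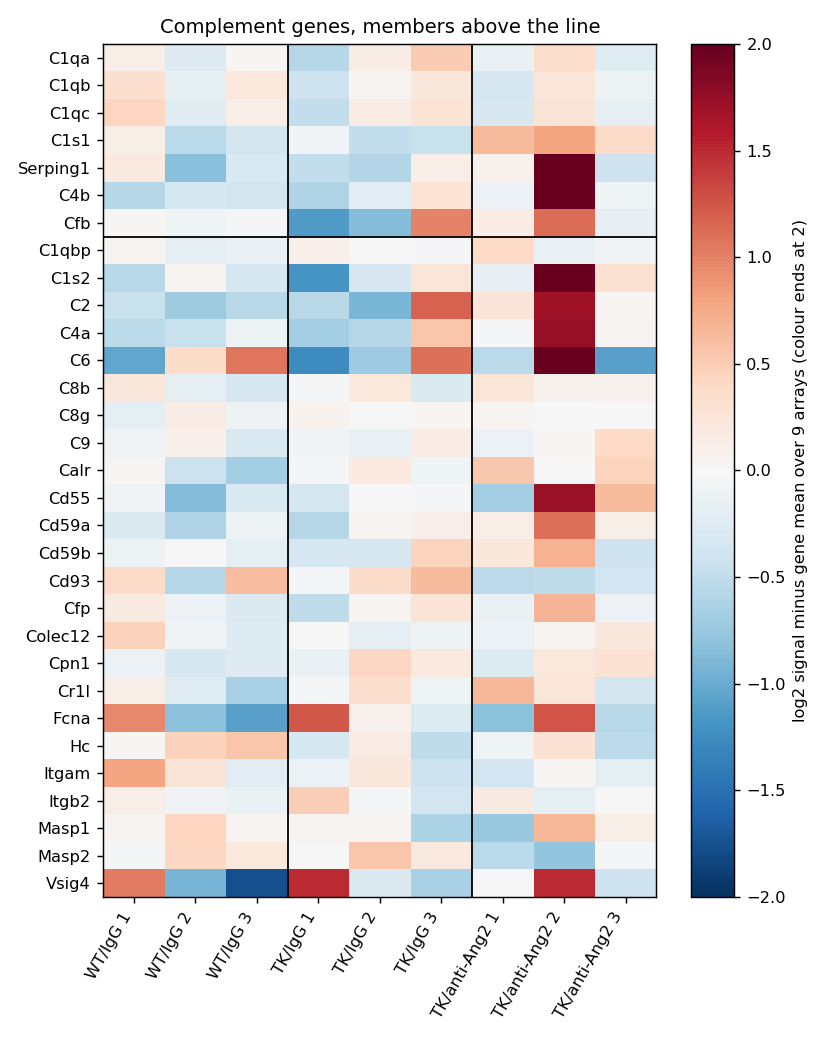
Log2 signal of 31 complement genes (rows) on the 9 arrays (columns), each gene minus its mean over the arrays, with the 7 members above the line. C1qa, C1qb and C1qc share their pattern, and the column of TK/anti-Ang2 replicate 2 is high for Serping1, C4b, C1s2, C2, C4a, C6 and Cd55.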

How the data were processed

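Illumina bead arrays measured biotin-labelled cRNA made from tumour RNA, per the labels' protocols. The deposited tables hold, per the file headers, a probe intensity without normalisation and a detection p-value, and the submitters' processing notes name GenomeStudio. The authors' processed intensity values, used as an alternative, are linear in the deposited signal on each array. In the larger table, 6 columns of 3 arrays match no sample and were not used. The late control's detection column repeats its signal, so its top 42.6% of probes counted as detected.

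With limma 3.58.1 (R 4.3.3), the 9 arrays were normalised by neqc (offset 16) and the 4 arrays by normexp (offset 50) and quantiles. Probes needed a detection p-value under 0.05 on 3 of 9 arrays or 1 of 4, and the brightest probe stood for a gene. The platforms were normalised apart. Of 45281 and 25697 probes, 34885 and 23978 had 1 gene symbol, with 18 of several and 10378 of none on the larger and 1719 of none on the smaller platform, and 34807 and 23962 were matched to RefSeq. Groups were compared by lmFit and eBayes over all 9 arrays with Benjamini-Hochberg adjustment over all genes. The fit was tested on simulated data. No genome build applies to the values.

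The members and gene lists were chosen with earlier results of these data known. The text names all members, the 3 largest differences each way among other complement genes and the 5 genes nearest to C1qa and to C1s1. Alternatives varied background correction, the detection filter, scaling, the source of values, how probes stand for a gene, which samples enter the fit, array weights, variance trend, replicate block and each array left out. A planned comparison of C1q protein sequences was not run.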

Additional observations from a re-analysis of the deposited data

Results flagged for a closer look

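Of the members, 3 had ablation ratios of opposite sign in the early and the late pair, each from 1 array per group, so the difference was not tested. The late minus early difference in log2 ratio was -1.15 for Serping1 (0.41 early, -0.75 late), 0.48 for C4b (-0.28 early, 0.20 late) and 0.61 for Cfb (-0.40 early, 0.21 late). The fibroblast marker sum was higher with early ablation (16320 against 14456) and lower with late ablation (9558 against 19624), and its part in the Serping1 values was not tested.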

How the results depend on the processing

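No member passed the adjusted threshold in any of the 396 recomputed differences. The sign changed in 34 of them. None counted as reversed, since a difference within 1 SE of 0, in either setting, was taken to have no direction. Of 70 recomputed pair ratios, 3 crossed a size of 1, each with arrays aligned on medians: C1qb early fell short (-0.97), and C1qb and Serping1 late passed it (-1.13 and -1.03). The late ratios of C4b and Cfb changed sign under that alignment (-0.13 and -0.03). The C1s1 difference from TK/IgG ranged from 0.45, with normexp that does not use detection p-values, to 1.22, with the authors' processed values. The count of genes past the adjusted threshold was 0 throughout, except for TK/anti-Ang2 against WT/IgG, where it was 1 when detection on all 9 arrays was required and 1 with array weights, in both cases Slc24a3 (named after its values were seen). Requiring detection on all 9 arrays drops C1s1. Leaving out each array in turn gave 0 such genes in every comparison. Unadjusted, the counts were then 205 to 429 for TK/IgG against WT/IgG, the lowest without WT/IgG replicate 2 (325 with all arrays), 264 to 1077 for TK/anti-Ang2 against TK/IgG, the highest without TK/anti-Ang2 replicate 3 (369 with all arrays), and 461 to 1519 for TK/anti-Ang2 against WT/IgG (817 with all arrays). In the last, 4 left-out arrays moved the count by over 1.5 times, to 491 without TK/anti-Ang2 replicate 1, 1519 without TK/anti-Ang2 replicate 3, 515 without WT/IgG replicate 2 and 461 without WT/IgG replicate 3. The difference in the gap between C1q and stromal genes ranged from -1.25 to -0.70, from -1.27 to -0.74 and, for TK/IgG against WT/IgG, from -0.21 to 0.22. In the late pair, alignment on medians gave 20 genes up and 107 down, and the authors' processed values gave 375 up and 262 down late and 253 up and 116 down early; the cause was not tested. Alignment on medians moved the median of all genes to -0.10 in both comparisons with WT/IgG. Same-numbered arrays had deviations correlating at -0.16 to 0.39. Whether they share more than a number is not stated and was not tested. With the replicate number as a block, C1s1 in TK/anti-Ang2 against TK/IgG kept its difference of 0.94, and 0, 0 and 0 genes passed.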
